A study of Saccharomyces cerevisiae with 6 samples.

Results

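The MUT loci are 604 rows of a gene-by-library read count table from colony biofilms of *Saccharomyces cerevisiae*, out of 10239 rows in all. They were taken as every row whose name begins with MUT, and no name occurred more than once. MUT stands for meiotic unannotated transcript (the study spells it meiotic unstable transcript), a class of non-coding RNA that was first catalogued in diploid yeast cells going through meiosis. The samples came from BR-F, a wild diploid strain, grown for 3 days into small structured colonies on a membrane over soft agar with glycerol and yeast extract. Aerial cells, which sit on top of the agar, were taken for 3 libraries, and root cells, the pseudohyphal cells that invade the agar, for another 3. Both groups share strain, medium, temperature and age, nothing was deleted or added, and each library pools many colonies.

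Non-coding RNA of budding yeast is often named after the enzyme that destroys it. The nuclear exosome is a complex that degrades RNA from the 3' end, and its nuclear subunit Rrp6 removes cryptic unstable transcripts (CUTs) and many of the transcripts that accumulate in meiosis. Stable unannotated transcripts (SUTs) are visible in growing cells that have Rrp6, and XUTs appear when the cytoplasmic exonuclease Xrn1 is missing. Rrp6 protein is known to decline as diploid cells enter meiosis, and MUTs are known for building up at that time. The files here give names and counts only. The position of each MUT locus, the genes beside it, its length and its sequence were not used here, so levels of different MUT loci are not compared per length. Where loci are ranked by reads, the rank depends on length as well as on level.

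MUT loci had few reads. The 6 libraries held 13764726 to 17095539 counts, of which the 604 MUT loci took 8208, 12772 and 14259 in aerial replicates 1 to 3 and 6765, 6248 and 7081 in root replicates 1 to 3. The median MUT locus had 5, 8 and 9 counts in the aerial libraries and 5, 4 and 5 in the root libraries. No locus was empty, however: every one had at least 1 count somewhere and 424 had a count in all 6 libraries. Another 12 loci had counts in aerial libraries and none in root libraries, and 10 had the reverse, but the largest total among them was 5 counts, so neither set shows a difference at this depth. Reads were spread over many loci, with the 10 MUT loci of most counts holding from 15.4% to 20.5% of MUT counts in a library. Aerial replicate 1 stood apart from the others, since 8.18% of its counts fell on non-coding rows against 2.52% to 5.10% elsewhere. Marker genes were also taken for the 2 cell layers. The 3 aerial markers (RGI2, SIP18 and NCE102) were all called higher in aerial cells. All 3 root markers (ARG1, GDH1 and HXK2) were called higher in root cells. The study lists at least SIP18 and HXK2 as differing in these same samples, so these calls are no independent check of the labels.

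MUT RNA as a whole was higher in every aerial library than in any root library. MUT loci made up 0.0596%, 0.0747% and 0.0969% of the counts in the aerial libraries and 0.0430%, 0.0380% and 0.0453% in the root libraries, with a 95% Wilson interval no wider than 0.00318 percentage points in any library, which covers counting error only. The 2 groups did not overlap, and the mean share was 1.83-fold higher in aerial cells (0.0771% ± 0.0188 against 0.0421% ± 0.00375, SD, n = 3 each). The exact two-sided permutation test gave p = 0.1, which is the smallest value that 3 against 3 libraries can give. After scaling each library by its effective size, the summed level was 685, 686 and 900.1 CPM (counts scaled to a common library size) in aerial cells and 448, 372 and 452 CPM in root cells. In these bulk samples a larger share of cells that make a transcript cannot be told apart from more of that transcript per cell.

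The difference was not carried by a few loci. Without the 10 MUT loci of most counts the mean share was still 1.77-fold higher in aerial cells. The 382 loci too thin to test summed to 100.4, 97.9 and 139 CPM in aerial libraries and 81.9, 66.1 and 78.4 CPM in root libraries. Tested loci that were not called by themselves summed to 320, 321 and 405 CPM against 268, 228 and 265 CPM. Neither sum overlapped between the groups, with ratios of the means of 1.49 and 1.37 (exact permutation p = 0.1 for both). Slightly more of the class was also detected: with every library thinned on paper to the depth of the shallowest one, 525, 545 and 567 MUT loci would have had a count in the aerial libraries and 522, 515 and 521 in the root libraries.

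**Figure D1:**
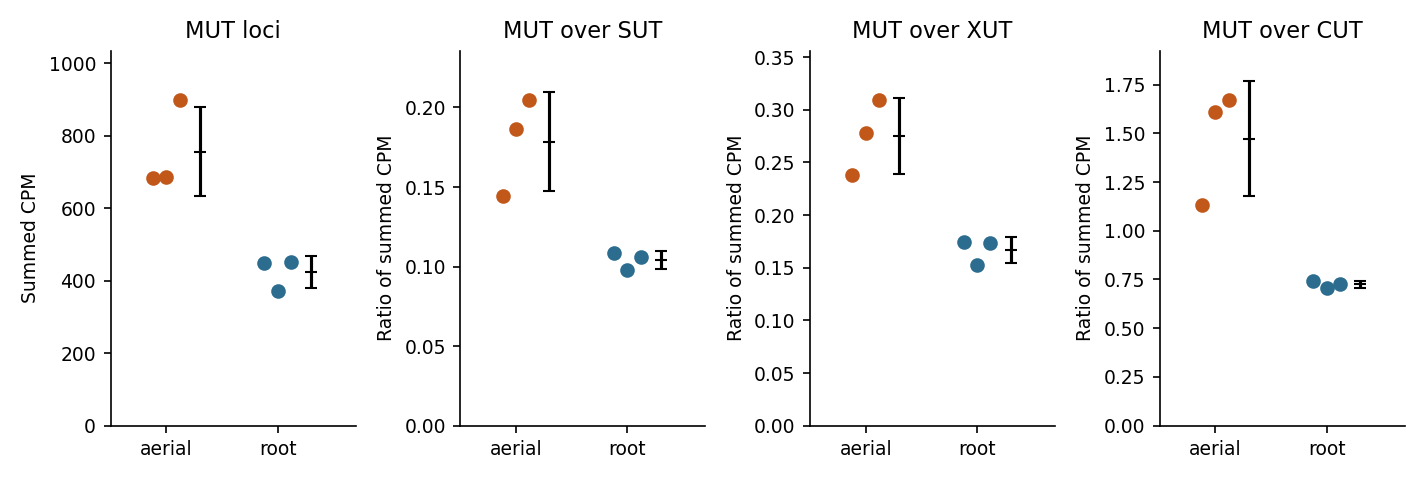
Summed CPM of the MUT loci and its ratio to the summed CPM of SUT, XUT and CUT loci, per library (points) with the mean and SD of each group (bars, n = 3), all axes from 0. In every panel the 3 aerial libraries lie above the 3 root libraries, and for MUT loci the aerial libraries sit between 685 and 900.1 CPM.

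The other non-coding classes were closer to even between the groups. SUT loci summed to 3679 to 4745 CPM in aerial libraries and 3802 to 4275 CPM in root libraries, and XUT loci to 2466 to 2908 CPM against 2433 to 2609 CPM. CUT loci, the other class that Rrp6 is known for, summed to 426 to 604 CPM in aerial and 527 to 621 CPM in root libraries. These 3 sums overlapped between the groups. Per library, the ratio of MUT to SUT RNA was 0.144, 0.186 and 0.205 in aerial cells and 0.109, 0.0979 and 0.106 in root cells. MUT RNA exceeded CUT RNA in all aerial libraries, at ratios of 1.13, 1.61 and 1.67, and lay below it in all root libraries, at 0.743, 0.706 and 0.728. The ratios to SUT, XUT, CUT and antisense loci did not overlap between the groups (exact permutation p = 0.1 each, Benjamini-Hochberg adjusted p = 0.125 over 5 ratios). The fifth ratio, to the remaining non-coding loci, did overlap, at 0.00828, 0.0478 and 0.0312 in aerial and 0.0123, 0.0134 and 0.0110 in root libraries (exact permutation p = 0.4, adjusted p = 0.4). None of the 5 ratios passed a threshold of 0.05.

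Against all non-coding counts the picture depended on 1 library. MUT loci took 0.729%, 2.97% and 2.30% of the non-coding counts in aerial cells and 0.974%, 1.02% and 0.888% in root cells, so that aerial replicate 1 fell below every root library while the other 2 aerial libraries stood above them (exact permutation p = 0.4). Without aerial replicate 1 the ratio of the mean shares went from 2.08 to 2.75 (exact permutation p = 0.1). In that library a single non-coding row, CSCR1D4, held 4.32% of all counts, against 0.907% to 2.08% in the others. With the 10 rows of most counts left out of the table, the share of MUT loci among non-coding counts was 1.73-fold higher in aerial cells and the groups separated (exact permutation p = 0.1).

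Locus by locus, the difference leaned to the aerial side. Of the 604 MUT loci, 451 (74.7%) had a higher mean CPM in aerial cells and 153 in root cells, where 52.3% of all 10239 loci were higher in aerial cells. In 161 MUT loci every aerial library exceeded every root library, and in 11 the reverse held. That is 26.7% and 1.82% of the class, while over all loci of the table the shares were 19.9% and 21.2%. Among SUT loci the corresponding shares were 15.7% and 15.5%, among XUT loci 13.9% and 15.9%, and among CUT loci 3.72% and 15.6%. A fit without any filter gave the 604 loci a median log2 fold change (root over aerial, so that negative values are higher in aerial cells) of -0.68, beside -0.04 over all loci.

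The test for single loci was edgeR's quasi-likelihood F test over the whole table, and a locus was called when it changed by 2-fold or more with an adjusted p under 0.05. It called 70 MUT loci higher in aerial cells and 4 higher in root cells. Over all 7971 loci tested, 9.20% were called higher in aerial cells and 10.8% higher in root cells. As shares of all loci measured, the MUT calls were 11.6% and 0.662%, against 7.16% and 8.41% of the table. Only 222 MUT loci had enough counts to be tested, and 23 of those passed through the aerial libraries alone, with all 3 aerial libraries and no root library at or above the minimum of 0.637 CPM, against 1 that passed through the root libraries alone. All 23 were called, as a locus chosen in that way had to differ, and the other 47 calls were of loci with 1 or more root libraries above the minimum. Of these 47, 16 had only 1 or 2 root libraries at or above it. Their root libraries alone would not have passed them, so the filter favoured these calls too. Of the 114 tested loci that reached the minimum in all 6 libraries, 31 were called higher in aerial cells. The count was sensitive to single libraries: it was 91 without aerial replicate 1, 37 without aerial replicate 3, 38 without root replicate 1 and 30 without root replicate 2, and 25 of the 70 loci were called in each of the 6 fits that left out a library. No called locus changed direction in any of them.

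**Figure D2:**
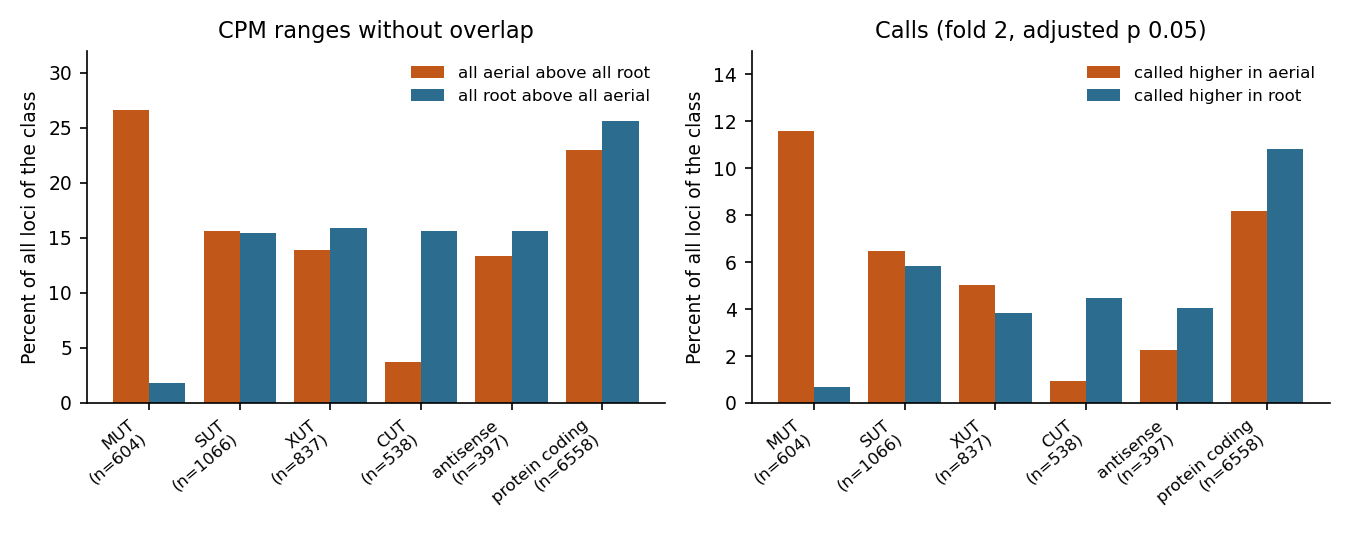
Share of all loci of each class whose CPM did not overlap between groups (left) and share called by edgeR (right), in percent, with orange bars for higher in aerial cells and blue bars for higher in root cells. MUT loci show 26.7% against 1.82% on the left and 11.6% against 0.662% on the right, while SUT and XUT loci have bars of similar height.

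The size of the change was moderate for most called loci. The 70 loci had a median fold of 3.09, with 17 at 4-fold or more and 6 at 8-fold or more, and adjusted p from 0.000575 to 0.0449. Over all loci tested, 93 (1.17%) were called at 4-fold or more higher in aerial cells, so the 17 MUT loci were 17 of those 93. In 67 of the 70 the libraries did not overlap, but the call selects for such separation, so this adds no separate support. The called loci held 38.7% of MUT counts in aerial cells and 20.3% in root cells. Aerial replicate 3 was the highest aerial library for 46 of the 70 loci and root replicate 2 the lowest root library for 41. All 70 loci exceeded the root mean in each aerial library, which the call also selects for. At the edge of the call, MUT1439.1 was just inside with a fold of 2.05 (log2 -1.04, adjusted p = 0.0279) and MUT671.1, at a log2 fold change of -0.997, fell just outside it (adjusted p = 0.0374). Both calls turned with the fit: MUT1439.1 lost its call without aerial replicate 3 (adjusted p = 0.0803), root replicate 1 (0.0873), root replicate 2 (0.132) or root replicate 3 (0.0674), and MUT671.1 gained one with upper quartile scaling (-1.05), with TMM on protein-coding loci (-1.01) and without aerial replicate 1 (-1.24).

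**Figure D3:**
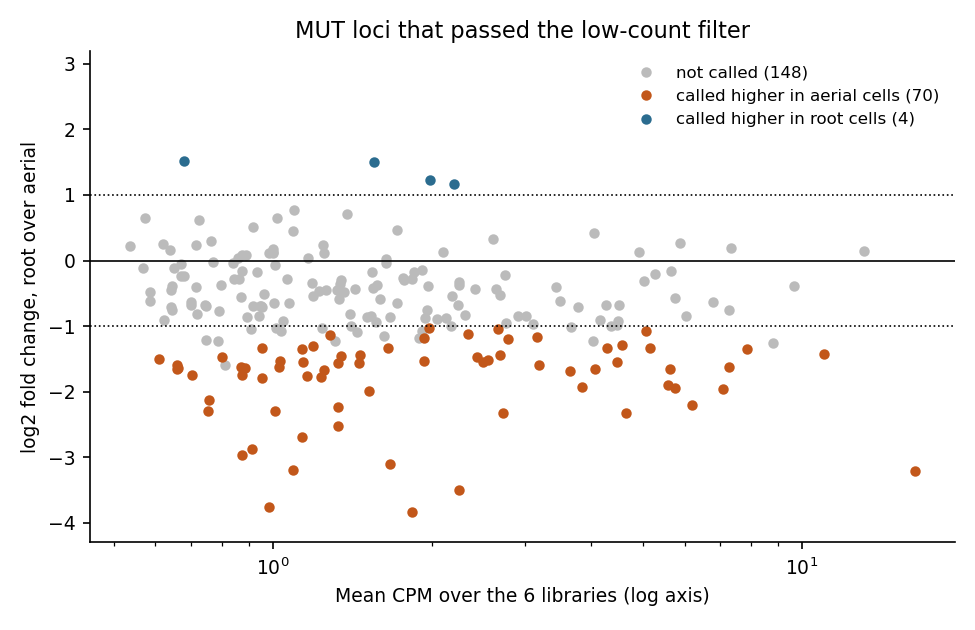
Log2 fold change (root over aerial) against mean CPM over the 6 libraries (log axis) for the 222 MUT loci that passed the low-count filter, with dotted lines at 2-fold. The 70 loci called higher in aerial cells (orange) occur from low to high levels, and the 4 called higher in root cells (blue) lie between 1.17 and 1.52.

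MUT1006.1 combined a large fold with the most reads of any MUT locus. It had 378, 299 and 651 counts in aerial replicates 1 to 3 and 56, 42 and 53 in root replicates 1 to 3. Its lowest aerial library, at 16.0 CPM, was more than 4 times its highest root library, at 3.71 CPM. The log2 fold change was -3.21 (standard error 0.37, adjusted p = 0.000882), and it stayed between -3.50 and -2.89 in all 14 alternative fits. It supplied the largest MUT count of aerial replicates 1 and 3.

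The largest folds belonged to loci that were close to silent in root cells. MUT1539.1 had 59, 38 and 53 counts in aerial libraries and 3, 6 and 2 in root libraries, which edgeR estimated at -3.83 in log2 (standard error 0.50, adjusted p = 0.00121). MUT1473.1 had 28, 24 and 30 against 3, 1 and 2 counts (-3.76, standard error 0.49), and MUT1044.1 had 56, 48 and 82 against 6, 8 and 3 (-3.50, standard error 0.43). With single-digit counts in every root library, the exact size of these folds rests on few reads. All 3 loci passed the filter through the aerial libraries alone, so that they were called carries no weight by itself.

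MUT578.4, MUT1539.2 and MUT886.2 followed at log2 fold changes of -3.20, -3.11 and -2.97. Every locus named in this paragraph passed the filter through the aerial libraries alone, so that they were called carries no weight by itself. MUT578.4 was uneven among aerial libraries, with 11, 40 and 45 counts against 4, 3 and 3 in root cells, whereas MUT886.2 was even, with 21, 19 and 30 against 4, 3 and 2. MUT230.2 (-2.88) and MUT135.1 (-2.70) completed the strongest group with non-overlapping libraries, together with MUT1095.1 (-2.52, adjusted p = 0.0146). That last locus had 40, 12 and 45 counts against 6, 6 and 6, and its adjusted p rose to 0.0603 without aerial replicate 3, 0.0528 without root replicate 1, 0.0631 without root replicate 2 and 0.0563 without root replicate 3.

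**Figure D4:**
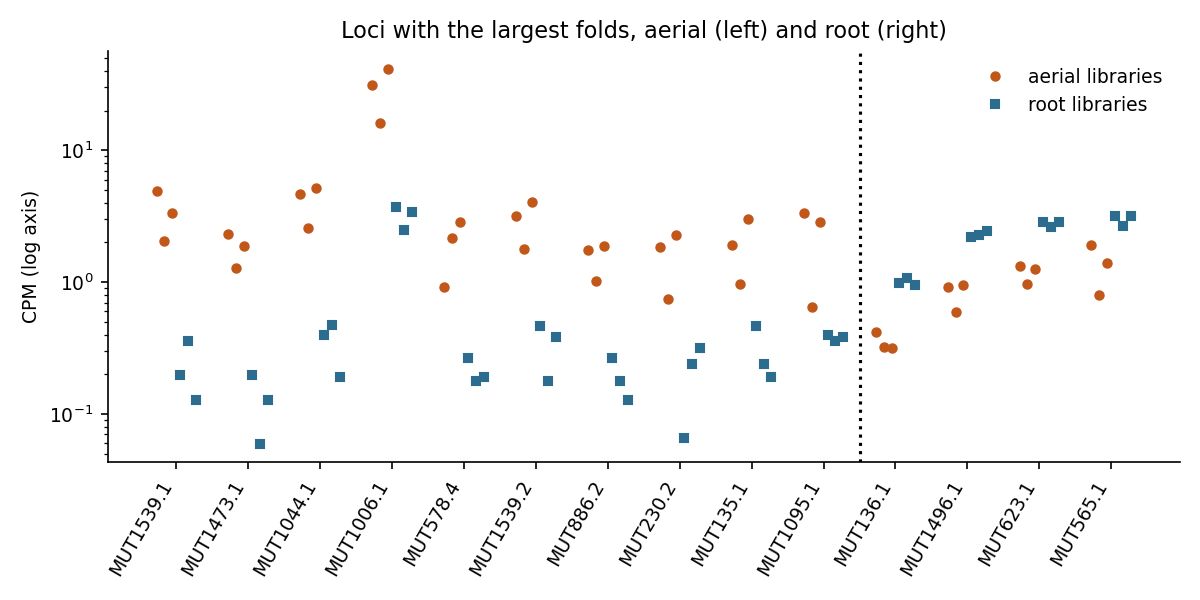
CPM in each library (log axis; orange circles aerial, blue squares root) for the 10 loci with the largest folds towards aerial cells, left of the dotted line, and the 4 called higher in root cells, right of it. The 10 aerial loci were selected among called loci whose libraries do not overlap. The 4 root loci do not overlap either, and MUT1006.1 stands above the rest with 16.0 to 41.1 CPM in aerial cells.

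The 4 loci called higher in root cells had similar counts within each group. MUT136.1 had 5, 6 and 5 counts in aerial libraries and 15, 18 and 15 in root libraries (log2 fold change 1.52, standard error 0.35, adjusted p = 0.0122). MUT1496.1 had 11, 11 and 15 against 33, 38 and 38 counts (1.50, adjusted p = 0.00679). MUT623.1 had 16, 18 and 20 against 43, 44 and 45 counts (1.24, adjusted p = 0.00928). MUT565.1, with 23, 15 and 22 against 48, 45 and 50 counts, was the smallest at 1.17 (adjusted p = 0.0281). All 4 separated the groups without overlap, which the call selects for, with folds from 2.25 to 2.87. These are not set against the larger folds in the other direction, since 23 loci entered the test through aerial libraries alone and 1 through root libraries alone. Another 40 tested loci had all 3 aerial but only 1 or 2 root libraries at the minimum, and 13 had the reverse. MUT136.1 reached only 0.0512 without root replicate 1. MUT565.1 lost the threshold with upper quartile scaling (0.0515) and without aerial replicate 3 (0.0768) or root replicate 1 (0.0943), 2 (0.0600) or 3 (0.0863), and without aerial replicate 2 its log2 fold change of 0.88 was under the fold cutoff, so its call held in 1 of the 6 fits that left out a library.

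Among the 8 MUT loci with most reads, the patterns were mixed. MUT1220.1 (177, 306 and 269 counts in aerial, 81, 121 and 83 in root libraries) and MUT1206.1 (137, 228 and 162 against 52, 86 and 74) were steady within each group and were called at log2 fold changes of -1.43 (adjusted p = 0.00205) and -1.35 (adjusted p = 0.00347). MUT1381.1 showed no difference beyond the spread, with 171, 222 and 178 counts in aerial and 194, 241 and 219 in root libraries (log2 0.14, standard error 0.20, adjusted p = 0.616), and it was the MUT locus of most reads in all 3 root libraries. MUT1382.1 (0.20, standard error 0.24) also lay near 0, as did MUT1392.1 (-0.16, standard error 0.31), which is not among the 8 and is named as the next locus by reads with so small a change. MUT521.1, at 16.9, 7.14 and 8.96 CPM against 7.75, 8.69 and 8.56 CPM in root cells, was spread as widely within the aerial group as between the groups (-0.39, adjusted p = 0.379).

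A further 3 loci of many reads were low in aerial replicate 1. MUT102.1 had 5.34 CPM there against 14.2 and 17.5 CPM in aerial replicates 2 and 3, with root libraries at 6.56, 2.80 and 6.32 CPM. MUT1485.2 had 4.09, 12.9 and 16.0 CPM against 4.71, 1.55 and 4.54 CPM, and MUT1465.2 had 6.01, 11.3 and 16.5 CPM against 3.25, 1.25 and 4.28 CPM. In each of the 3, root replicate 2 was the lowest of all libraries. MUT102.1 did not pass the threshold (log2 -1.25, adjusted p = 0.0647) but did so without aerial replicate 1 (-1.60, adjusted p = 0.00756) and in DESeq2 (adjusted p = 0.0180). MUT1465.2 was called (-1.95, adjusted p = 0.0146) and rose to 0.0623 without aerial replicate 3, 0.0509 without root replicate 1 and 0.0529 without root replicate 2. MUT1485.2 was called while its groups overlapped (-1.62, adjusted p = 0.0449) and was among the least stable, at an adjusted p of 0.162 without aerial replicate 3, 0.153 without root replicate 2, 0.0941 without root replicate 3, 0.0817 without root replicate 1 and 0.0770 without aerial replicate 2. Also unstable were MUT730.1 (-1.31, adjusted p = 0.0422), which failed the threshold in 5 of the fits with a library left out and reached 0.165 without root replicate 2, and MUT453.1 (-1.47, adjusted p = 0.0370), which failed in 3 and reached 0.162 without root replicate 3.

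Some MUT names share a number and differ after the point. The table holds 514 such numbers, of which 432 have 1 row, 75 have 2, 6 have 3 and 1 has 4. What the number stands for is not given in the sources used here, so rows of 1 number may not be independent transcripts, and the 70 loci called higher in aerial cells carry 66 different numbers. Within the 20 numbers with 2 tested rows, both rows lay on the same side of 0 in 17, and their log2 fold changes differed by a median of 0.45 and by at most 1.12. Both rows were called higher in aerial cells for 4 numbers. In MUT1539 they stood at -3.83 and -3.11. In MUT1435 they stood at -1.95 (71, 135 and 226 against 30, 26 and 56 counts) and -2.24 (19, 38 and 47 against 6, 8 and 8 counts). MUT1435.3 just missed the threshold without root replicate 2 (adjusted p = 0.0502). Both MUT1539 rows and MUT1435.4 passed the filter through the aerial libraries alone, so their calls carry no weight by themselves.

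In 7 numbers 1 of the 2 rows was called. MUT1409.2 changed by -1.54 (adjusted p = 0.0303) and MUT1409.1 by -0.42 (adjusted p = 0.457). MUT971.1, which passed the filter through the aerial libraries alone, stood at -1.65 and MUT971.2 at -0.68. MUT1007.2 stood at -1.19 and MUT1007.1 at -0.69. These 3 calls were lost without root replicate 1 or 2, at adjusted p of 0.0958 and 0.0870 for MUT1409.2, 0.0560 and 0.0521 for MUT971.1, and 0.119 and 0.138 for MUT1007.2. MUT1409.2 also lost its call without root replicate 3 (adjusted p = 0.107). Without aerial replicate 1 its log2 fold change of -0.91 was under the fold cutoff. MUT1007.2 failed the threshold in 3 of 14 alternative fits, and its smallest log2 fold change among them, -0.84, was under the fold cutoff. A test of the difference between rows of 1 number (edgeR, 94 MUT and SUT rows together, of which 0.00% were called) found no MUT row that departed from its number: the smallest unadjusted p among the 40 MUT rows was 0.199 for MUT1409.1, 0 were below 0.05, and the smallest adjusted p was 0.995. The estimated departures ran from -0.54 to 0.59 in log2, and a split of this size was not detectable at these counts.

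Protein-coding genes of meiosis were higher in the same aerial libraries. Most genes on the recombination and synapsis list make and repair meiotic double-strand breaks or build the synaptonemal complex. The list also holds SPO13, MAM1 and AMA1, which act in other steps of meiosis. Of the 32 genes on the list, 30 were called higher in aerial cells and 0 higher in root cells, against 9.20% and 10.8% of all loci tested. Their median log2 fold change was -2.75, against -0.03 over all loci tested. MER1, the meiosis-specific activator of splicing, had 17.8, 15.1 and 18.9 CPM in aerial and 0.928, 0.536 and 1.66 CPM in root libraries (-4.05, standard error 0.36, adjusted p = 0.000443). ECM11, a synaptonemal complex protein, had 19.9, 75.3 and 63.3 against 4.18, 4.64 and 3.71 CPM (-3.66, adjusted p = 0.00113). The list summed to 2638, 4421 and 3795 CPM in aerial and 844, 684 and 966 CPM in root libraries, a wider gap than that of the MUT loci. AMA1 alone gave 595, 1465 and 1038 CPM of the aerial sums and 359, 226 and 455 CPM of the root sums.

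Those entry genes and late genes of the programme that were called were all higher in aerial cells. Among the 17 entry genes, 14 had a log2 fold change below 0. The shares called over all loci tested were 9.20% higher in aerial cells and 10.8% higher in root cells. Of 17 meiotic entry genes, 7 were called higher in aerial cells and 0 higher in root cells (median -0.69), led by SLZ1, a partner of the Ime4 mRNA methyltransferase, at -2.58 (adjusted p = 0.0195), and IME2, the kinase that drives meiotic initiation, at -2.23 (adjusted p = 0.000983). SLZ1 overlapped between groups, as its 36.9 CPM in aerial replicate 1 was below the 391 and 301 CPM of the other aerial libraries and within the root range of 31.9 to 47.4 CPM, and its adjusted p reached 0.0852 in the least favourable alternative. Late sporulation genes, which build the prospore membrane and spore wall, were called higher in aerial cells in 27 of 28 cases (median -1.69), among them MPC54 of the meiotic spindle pole body at -2.16 (adjusted p = 0.00205) and SPS100 of the spore wall at -1.99 (adjusted p = 0.00139). Without root replicate 2, 16 of the 28 were called. Their sum was 8046, 23870.2 and 15792 CPM in aerial and 4969, 3237 and 5876 CPM in root libraries, so aerial replicate 1 was the lowest aerial library and root replicate 2 the lowest of all. A large part of this sum came from 1 gene, SPS4, so the order of the libraries leans on it. SPS4 had 2788, 13037 and 7167 CPM in aerial and 2392, 1435 and 2859 CPM in root libraries, which overlapped. The MUT sum was 685, 686 and 900.1 CPM in aerial replicates 1 to 3 and 448, 372 and 452 CPM in root replicates 1 to 3. It was highest in aerial replicate 3, and the late sporulation sum in aerial replicate 2. No late sporulation gene was at 0 in root cells. The study reports that BR-F colonies rarely sporulate and that the strain sporulates poorly in liquid medium as well. Whether sporulating cells had a part in the MUT difference was not tested.

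Genes that are switched off in diploids and on in haploids, some in only 1 mating type, were also counted, because spores are haploid. Of 15, 6 were called higher in aerial cells and 0 higher in root cells, against 9.20% and 10.8% of all loci tested. The sum of the 15 ran from 135 to 201 CPM in aerial and from 100.6 to 117 CPM in root libraries. STE18, the gamma subunit of the mating G protein, stood at -1.87 (adjusted p = 0.0309) with overlapping groups, and FAR1, which arrests the cell cycle in mating, at -1.58 (adjusted p = 0.00396). The count was 2 without aerial replicate 2, 3 without aerial replicate 3, 3 without root replicate 1, 3 without root replicate 2 and 4 without root replicate 3. The pheromone gene MF(ALPHA)2 had 2 to 5 counts per library and was not tested.

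**Figure D5:**
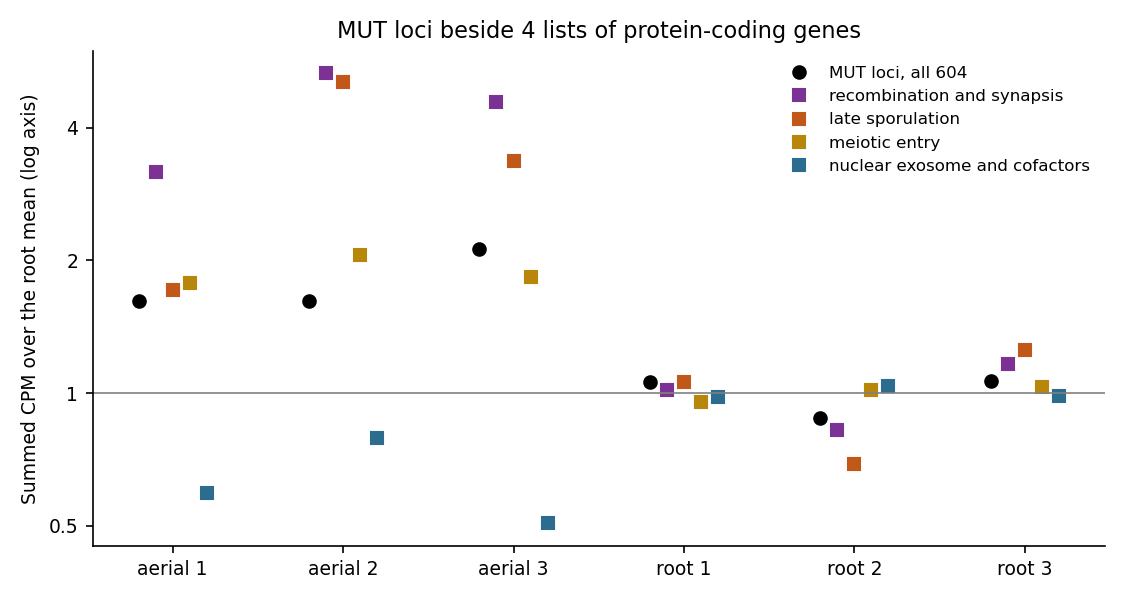
Summed CPM in each library divided by the mean of the 3 root libraries (log axis), for the 604 MUT loci (black circles) and for 4 lists of protein-coding genes (coloured squares). MUT loci, meiotic entry, recombination and late sporulation genes lie above 1 in all aerial libraries, and genes of the nuclear exosome lie below 1 there.

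The genes of the nuclear exosome that were called were all higher in root cells. RRP6, the exonuclease known to remove meiotic transcripts, had 118, 171 and 85.2 CPM in aerial libraries and 247, 279 and 258 CPM in root libraries, a change of 1.07 in log2 (called, standard error 0.26, adjusted p = 0.0144). Without aerial replicate 3 its fold fell under the cutoff (0.85, adjusted p = 0.0353). Of 21 exosome subunits and cofactors, 6 were called higher in root cells and 0 higher in aerial cells, against 10.8% and 9.20% of all loci tested. The 21 had a median log2 fold change of 0.94, and 19 of them lay above 0. MTR4, the helicase that feeds RNA to the exosome, stood at 1.32 (adjusted p = 0.0219), and RRP42, a subunit of the exosome ring, at 1.30 (adjusted p = 0.00121). Many members lay near the 2-fold line, and the count of 6 moved to 4 without aerial replicate 1, to 12 without aerial replicate 2, to 3 without aerial replicate 3 and to 9 without root replicate 2 or root replicate 3.

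The exosome list summed to 1621, 2165 and 1385 CPM in aerial and 2671, 2831 and 2698 CPM in root libraries. The MUT sums of aerial replicates 1 to 3 were 685, 686 and 900.1 CPM. Of 13 genes of cytoplasmic decay, the pathway that acts on XUTs through Xrn1, edgeR called 0 in either direction (DESeq2 also 0). Over all loci tested, 9.20% were called higher in aerial and 10.8% higher in root cells, so 0 of 13 says little. The sum of these genes, 1813 to 2445 CPM in aerial libraries, overlapped that of 1940 to 2184 CPM in root libraries. CUT loci, which also depend on Rrp6, had 5 of 538 loci (0.929%) called higher in aerial and 24 (4.46%) higher in root cells, against 7.16% and 8.41% of all loci in the table. Fewer CUT loci than loci of the table could be tested. As shares of tested loci, the CUT calls were 2.20% and 10.6%, against 9.20% and 10.8%. On that base root calls were about as frequent as in the table, and aerial calls were rarer. Whether the exosome messages bear on the MUT levels was not tested.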

How the data were processed

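RNA from 3 aerial and 3 root samples, described as independent replicates, was depleted of ribosomal RNA and sequenced with a stranded kit. Per the labels and the study's methods, the authors aligned reads with TopHat 2.0.14 to genome build R64 and counted them per strand with featureCounts over coding genes and non-coding loci of earlier catalogues that had been trimmed and merged. The deposited values are raw counts per locus. How reads with several positions were counted is not given in the sources used here. One line that named no locus (at most 3.64e-05% of counts) was left out.

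Counts were tested with edgeR 4.0.16 (R 4.3.3) after filterByExpr (10 counts scaled to depth, in at least 3 libraries) and TMM scaling, and Benjamini-Hochberg correction was applied across the 7971 loci that passed. CPM are counts scaled to the effective (TMM) library size. DESeq2 1.42.0, other scalings and filters, a replicate block and fits without each library were alternatives. Sums were compared by two-sided exact permutation tests. The statistics were tested on simulated data. RefSeq symbols were matched to locus tags for all genes of the 6 gene lists.

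The MUT loci, lists and tests were chosen with earlier results of these data known. Loci named are the 10 of largest fold higher in aerial cells without overlap, all called higher in root cells, the 8 of most counts, the 5 of most counts among those called, the 3 of most counts with a log2 change under 0.2, numbers with several rows, those nearest the fold cutoff and the 3 least stable, plus RRP6 and the 2 most changed called genes of each list (the cytoplasmic decay list had none).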

Additional observations from a re-analysis of the deposited data

How the results depend on the processing

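With 3 libraries a group and a median of 4 to 9 counts per locus, most MUT loci could be tested weakly or not at all. Other tools and scalings called 70 to 73 MUT loci higher in aerial cells and 3 or 4 higher in root cells, with 68 to 70 of the main 70 shared. Over all loci, the median log2 change lay between -0.09 and 0.01 in every fit. Without a filter the calls were 85 and 4. With at least 10 counts required in every library, 116 MUT loci were tested and 31 called higher in aerial cells. At 4-fold or more the calls were 17 and 0, and with no fold cutoff 77 and 4. Leaving out 1 library gave 30 to 91 loci higher in aerial cells and 2 to 5 higher in root cells, with 2 libraries in 1 of the groups. The share of MUT loci in all counts was 1.60 to 2.04 times as high in aerial as in root cells when a library was left out, and their share of non-coding counts 1.58 to 2.75 times. The test of rows of 1 number gave 0 MUT calls in the 9 fits it was repeated in (10 counts in every library, library sizes alone, replicate block, each library left out). The replicate block gave 72 and 4 calls. Deviations of same-numbered libraries from their group means correlated at -0.14, 0.14 and -0.04. Aerial replicate 3 correlated best with root replicate 1 (0.36). With 3 libraries a group, these values cannot settle whether same-numbered samples were paired, and the main fit treated them as unpaired. Gene list counts were recomputed in the same fits, which was decided after they had been seen. The block moved the exosome count from 6 to 10.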
